A study of Mus musculus with 6 samples.

Results

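The aminoacyl-tRNA synthetases are the enzymes that attach each amino acid to its transfer RNA (tRNA). A total of 36 of their nuclear genes were followed here among the 26286 genes of the count table, 20 for cytosolic enzymes and 16 for mitochondrial ones. The rule lists them by gene name, and all 36 were found in the table by gene identifier and passed the filter on low counts. After 3 days of doxycycline (dox), 16 of the 20 cytosolic genes were lower and 0 were higher, while among the 16 mitochondrial genes 8 were lower and 1, Cars2, was higher. Over all genes tested, 26.6% were lower and 27.0% were higher. The falls were small: the largest, in Pars2 and Kars, left 61.6% and 63.4% of the untreated level.

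Cells of the tri-transgenic leukemia A024, a B progenitor acute lymphoblastic leukemia, were taken by cell sorting out of the bone marrow of Rag1 knockout hosts. In one group of 3 libraries the mice had no dox (0 days) and the gate took GFPhigh cells, and in the other the mice ate dox food for 3 days and the gate took GFPmid cells. The series title names the study as one of Pax5 restoration. Pax5 encodes a transcription factor needed for commitment to the B lineage. The labels do not spell out the 3 transgenes; such models are known to use a short hairpin RNA against Pax5 that dox switches off and that is made together with GFP. The replicates are mice with 1 shared leukemia, so each p-value reflects the spread among mice with this leukemia, not among leukemias. Gate and treatment changed together and cannot be told apart, and no dox-treated mice without the transgenes were analysed here.

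Nearly every amino acid has a synthetase of its own, and besides the cytosolic enzymes cells need others in mitochondria, where the few proteins encoded by mitochondrial DNA are made. Most mitochondrial enzymes have a nuclear gene of their own, named with the ending 2, whereas Kars and Gars each encode the cytosolic and the mitochondrial form. Part of the cytosolic enzymes sit in a large multisynthetase complex held together by scaffold proteins. Several cytosolic genes are known targets of ATF4, the transcription factor of the amino acid and stress response, and growth-promoting factors such as Myc are known to act on many genes of protein synthesis. Proliferating leukemia cells have a high demand for protein synthesis.

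Total counts ran from 14185203 to 15612435 per library. Levels are given as CPM, counts scaled to the size of the library after adjustment by the trimmed mean of M values, always in the order of replicates 1, 2 and 3. Pax5 measured 153.8, 93.5 and 105.2 CPM before and 227.2, 281.2 and 230.6 CPM after dox (log2 fold change 1.07, SE 0.17, edgeR adjusted p = 0.000695). All 8 markers of the B lineage rose, with sums of 4165 to 4454 CPM before and 8402 to 9461 CPM after dox, among them Cd79b by 1.15 and Vpreb1 by 0.81 on the log2 scale. Markers of other cells were also higher: the summed level of 8 neutrophil markers was 87.6 to 111.6 CPM in untreated libraries and 521.7, 112.6 and 248.4 CPM in dox replicates 1, 2 and 3, and that of 8 macrophage and dendritic cell markers 6.37 to 11.7 against 26.1 to 34.8 CPM. S100a8 and Lcn2 rose by 1.70 and 1.52, and Vcam1 and C1qc by 2.83 and 2.53. The groups of S100a8 overlapped, with dox replicate 2 at 22.9 CPM and untreated replicate 1 at 23.1 CPM. Without dox replicate 1, S100a8 was at 1.07 and Lcn2 at 0.89, and without untreated replicate 1 Vcam1 was at 3.61. Markers of T and NK cells summed to 2.70 to 9.75 CPM over all libraries, with Cd3e and Cd8a at 0 counts, and those of red cells and platelets to 1.60 to 7.37 CPM. Of 5 plasma cell markers, 3 rose (Irf4 by 0.64 and Prdm1 by 0.87 with the smallest p) and 2 fell (Sdc1 at −1.55 and Jchain at −1.72). Of 7 stromal and endothelial markers 3 were tested and 2 rose (Pecam1 by 0.58 and Col1a1 by 1.13). The 7 summed to 94.8 to 102.9 CPM before and 129.9 to 160.9 CPM after dox. Nearly all of this was Pecam1, with means of 97.5 and 145.3 CPM, whereas Col1a1 had means of 0.80 and 1.77 CPM. Col1a1 was not called without untreated replicate 2, untreated replicate 3, dox replicate 1 or dox replicate 2 (edgeR adjusted p = 0.15, 0.132, 0.0526 and 0.163). Of 7 genes that respond to cell handling, 4 rose (Jun by 1.32 and Hspa1b by 1.104 with the smallest p) and 1, Dnajb1, fell at −0.26. The part of these cells and responses in the results below was not tested. Beside the marker counts, 27.0% of all genes tested were higher and 26.6% lower. In bulk RNA, fewer cells of a type and less RNA per cell cannot be told apart, and a lower CPM is lower only relative to all RNA counted.

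Among all 12275 genes tested, 26.6% were lower and 27.0% were higher, 53.6% in all (edgeR quasi-likelihood test, adjusted p under 0.05 over all genes), and the median log2 fold change was 0.01. Against this background 24 of 36 synthetase genes were lower and 1 was higher. The log2 fold change was below 0 for all 20 cytosolic and for 13 of 16 mitochondrial genes, with medians of −0.30 and −0.26. Every dox library lay below every untreated library for 16 cytosolic and 11 mitochondrial genes, against 31.0% of all genes tested, and above for 1 (Cars2), against 31.2%. When a change of more than 1.5-fold was asked for (glmTreat in edgeR), 0 of the 36 genes passed in either direction, against 928 higher and 670 lower among all genes. Of the calls made at any fold change, 11 cytosolic and 5 mitochondrial falls and the rise of Cars2 were called under each of the other 13 alternatives, which included leaving out each library in turn. The number of cytosolic genes called lower ranged from 12, without untreated replicate 2 or without untreated replicate 3, to 16. That of mitochondrial genes ranged from 5, without untreated replicate 3 or without dox replicate 1, to 9.

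**Figure D1:**
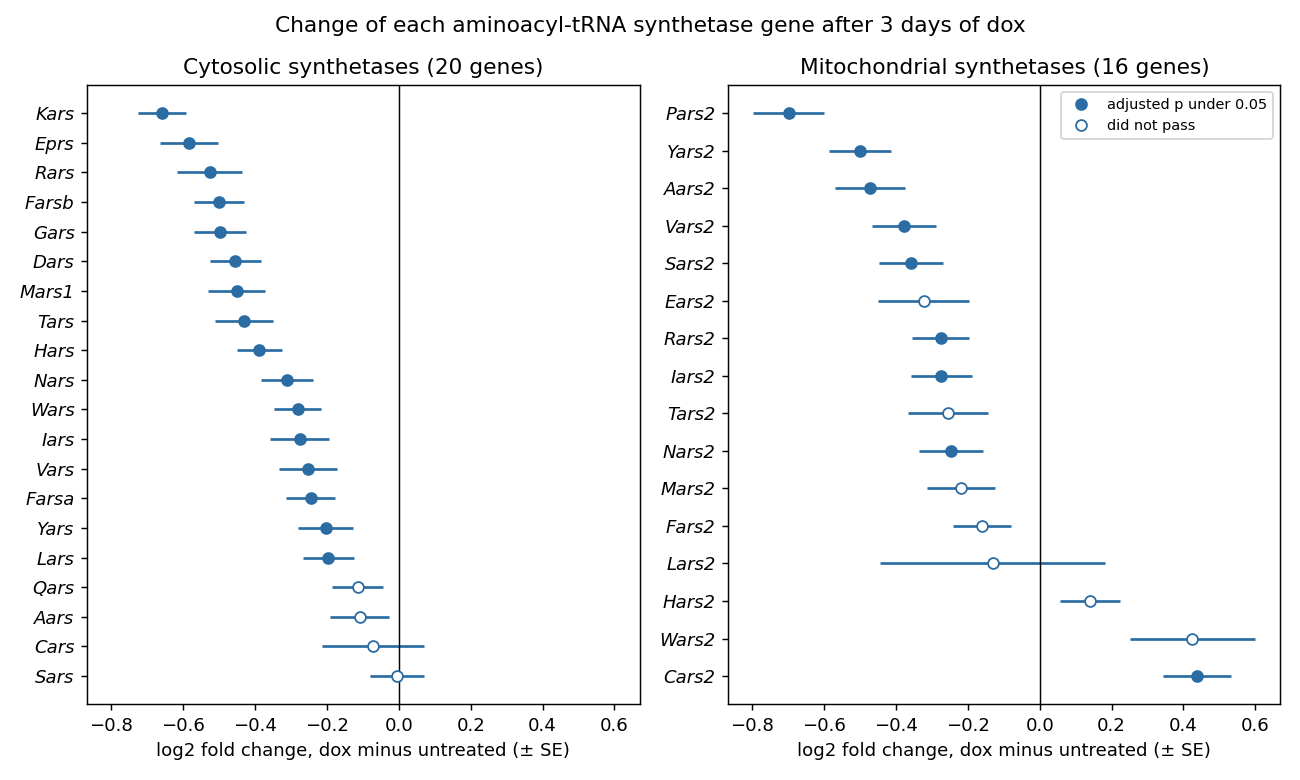
Log2 fold change (horizontal axis, dox minus untreated, 3 libraries each) of the 20 cytosolic (left) and 16 mitochondrial (right) synthetase genes, with SE as bars; filled points had an adjusted p under 0.05. All cytosolic points lie below 0, from −0.66 (Kars) to −0.0057 (Sars), and the mitochondrial points spread from −0.70 (Pars2) to 0.44 (Cars2).

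For 27 of the 36 genes RefSeq (GRCm38.p6) gave a promoter window of 300 bases, 250 before and 50 after the transcription start, 13 of them cytosolic and 14 mitochondrial. Since 16 of the 20 cytosolic genes fell, the windows were searched on both strands for 2 motifs: TGATGNAA, the core of the C/EBP-ATF response element through which ATF4 acts, and CACGTG, the E-box bound by Myc and related factors. TGATGNAA was in 5 windows, all cytosolic (Aars, Gars, Iars, Tars and Yars), or 18.5% of the 27, and in 4.51% of the windows of 27025 genes. CACGTG was in 5 windows, 4 cytosolic (Aars, Farsb, Iars and Tars) and 1 mitochondrial (Ears2, at bases 22 to 27 after the start), again 18.5%, against 8.09% of all genes. The 27025 genes were not limited to the 12275 tested here, whereas all members passed the filter, so these shares set unlike groups of genes side by side. No site of one motif overlapped a site of the other. The stretches that hold the cytosolic sites are printed 5′ to 3′ on the gene's strand, from 150 bases (Aars) or 80 bases (the others) before the start to base 28 after it. Capitals mark CACGTG or TGATGNAA, the second of which reads as TTGCATCA or TTTCATCA where it lies on the other strand.
Aars, chr8:111033692-111033869, plus strand: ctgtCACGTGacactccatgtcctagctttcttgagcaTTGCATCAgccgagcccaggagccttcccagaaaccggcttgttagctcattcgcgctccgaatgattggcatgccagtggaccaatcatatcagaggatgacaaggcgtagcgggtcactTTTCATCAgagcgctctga
Iars, chr13:49682050-49682157, plus strand: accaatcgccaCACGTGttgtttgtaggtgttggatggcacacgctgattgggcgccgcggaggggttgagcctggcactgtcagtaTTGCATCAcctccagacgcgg
Tars, chr15:11399631-11399738, minus strand: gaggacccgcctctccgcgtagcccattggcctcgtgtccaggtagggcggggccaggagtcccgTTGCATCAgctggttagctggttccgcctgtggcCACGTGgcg
Yars, chr4:129189823-129189930, plus strand: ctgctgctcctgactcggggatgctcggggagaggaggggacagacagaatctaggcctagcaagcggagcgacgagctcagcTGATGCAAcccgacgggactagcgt
Gars, chr6:55037921-55038028, plus strand: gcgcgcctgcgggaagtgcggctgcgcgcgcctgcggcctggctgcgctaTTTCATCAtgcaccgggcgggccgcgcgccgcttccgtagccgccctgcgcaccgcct
Farsb, chr1:78488870-78488977, minus strand: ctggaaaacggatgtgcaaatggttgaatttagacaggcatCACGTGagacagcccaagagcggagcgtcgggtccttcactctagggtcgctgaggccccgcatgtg
The sites of Aars lie at bases −146 to −141 (CACGTG), −112 to −105 and 10 to 17, those of Iars at −69 to −64 (CACGTG) and 8 to 15, and those of Tars at −15 to −8 and 20 to 25 (CACGTG). Yars holds its site at bases 4 to 11, Gars at −30 to −23 and Farsb its E-box at −39 to −34. The 6 genes printed had log2 fold changes of −0.11 (Aars), −0.28 (Iars), −0.43 (Tars), −0.20 (Yars), −0.50 (Gars) and −0.50 (Farsb), and only Aars did not pass the test. A match describes letters in a reference window and no binding was measured here.

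The lysyl-tRNA synthetase gene Kars had the deepest fall of the cytosolic set. It measured 221.5, 244.1 and 242.8 CPM before and 144.8, 149.9 and 154.0 CPM after dox (log2 fold change −0.66, SE 0.07, edgeR adjusted p = 5.67e-05). Eprs, whose product joins glutamyl and prolyl synthetase activity in one chain, went from 261.9, 299.0 and 292.6 to 175.7, 189.5 and 204.4 CPM (−0.58, SE 0.08). The arginyl gene Rars went from 139.7, 140.7 and 143.2 to 92.7, 88.8 and 112.4 CPM (−0.53, SE 0.09). All 3 enzymes belong to the multisynthetase complex, and in each the groups were well apart. Farsb, the beta subunit of phenylalanyl-tRNA synthetase, measured 103.3, 100.2 and 106.1 CPM before and 68.9, 72.7 and 77.3 CPM after dox (−0.50, SE 0.07). Its partner Farsa, the catalytic alpha subunit of the same enzyme, went from 90.9, 88.8 and 92.2 to 79.9, 77.4 and 72.2 CPM (−0.24, SE 0.07, edgeR adjusted p = 0.0141). Both subunits thus fell without overlap between groups, although the call of Farsa was lost without untreated replicate 3 (edgeR adjusted p = 0.0547). The glycyl gene Gars, which also serves mitochondria as Kars does, went from 212.1, 238.6 and 228.1 to 155.4, 154.5 and 170.9 CPM (−0.50, SE 0.07).

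A second tier fell by less. The aspartyl gene Dars and the methionyl gene Mars1, both of the multisynthetase complex, changed by −0.45 each (SE 0.07 and 0.08), and the threonyl gene Tars by −0.43 (SE 0.08). Tars measured 154.8, 154.8 and 154.1 CPM in untreated libraries, the tightest level of the cytosolic set, and 118.7, 101.6 and 123.4 CPM after dox. The histidyl gene Hars changed by −0.39 (SE 0.06) and the asparaginyl gene Nars by −0.31 (SE 0.07). For the tryptophanyl gene Wars, known as an interferon-induced member, the level went from 124.7, 124.6 and 132.6 to 108.1, 101.2 and 104.9 CPM (−0.28, SE 0.06, edgeR adjusted p = 0.00512). Every dox library was lower than every untreated library in each of these 6 genes.

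For 4 further cytosolic genes the fall was called but lost its call when single libraries were left out. The isoleucyl gene Iars measured 161.8, 176.6 and 163.6 CPM before and 139.7, 124.5 and 150.4 CPM after dox (−0.28, SE 0.08), and was not called without untreated replicate 2 (edgeR adjusted p = 0.0756). The valyl gene Vars, the most abundant cytosolic member per length at 173.2 RPKM (CPM per kilobase of gene length) in untreated libraries, went from 694.8, 741.7 and 757.9 to 668.2, 605.4 and 569.3 CPM (−0.25, SE 0.08). Without untreated replicate 2, without untreated replicate 3 and without dox replicate 3 its adjusted p by edgeR was 0.0774, 0.0931 and 0.0574. The leucyl gene Lars and the tyrosyl gene Yars changed by −0.20 each (SE 0.07 and 0.08), with adjusted p = 0.0408 and 0.0466 by edgeR. The call of Lars was lost without untreated replicate 2, untreated replicate 3, dox replicate 1 or dox replicate 2 (edgeR adjusted p = 0.165, 0.1, 0.095 and 0.0815). That of Yars was lost without the same 4 libraries (edgeR adjusted p = 0.152, 0.119, 0.0907 and 0.126).

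The 4 cytosolic genes that did not pass were those for alanine, cysteine, glutamine and serine. Sars, the seryl gene, measured 111.7, 117.1 and 113.9 CPM before and 124.0, 105.0 and 112.4 CPM after dox (−0.0057, SE 0.08, edgeR adjusted p = 0.957). Cars, the cysteinyl gene and the least abundant cytosolic member per length (18.2 RPKM untreated), measured 44.2, 51.7 and 51.3 CPM before and 51.9, 35.6 and 52.6 CPM after dox (−0.072, SE 0.14, edgeR adjusted p = 0.697). Of the dox libraries only replicate 2 was low for Cars, and without it the log2 fold change was 0.089. Dox replicate 2 was also the lowest of the 3 dox libraries for Aars, the alanyl gene, and for most other cytosolic genes. The 20 cytosolic genes summed to 2912, 2725 and 2944 CPM in dox replicates 1, 2 and 3. Without dox replicate 2 their median log2 fold change was −0.26, against −0.30 with all libraries. Aars measured 172.8, 176.0 and 178.1 CPM before and 170.7, 143.5 and 174.5 CPM after dox (−0.11, SE 0.08, edgeR adjusted p = 0.292). Qars, the glutaminyl gene of the multisynthetase complex, measured 161.0, 179.0 and 174.1 CPM before and 152.3, 155.1 and 167.6 CPM after dox (−0.11, SE 0.07, edgeR adjusted p = 0.200). The groups overlapped in each of the 4 genes.

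Grouped by complex, 7 of the 8 cytosolic members of the multisynthetase complex were lower (median −0.45) and 9 of the 12 free enzymes (median −0.27). Their summed levels were 74.5% and 82.4% of the untreated mean. By structural class of the enzyme's catalytic domain, 7 of 9 class I genes (median −0.25) and 8 of 10 class II genes (median −0.41) were lower, with Eprs, which holds both classes, left out. Farsb, a beta subunit, was counted as class II with its catalytic partner Farsa. Of 12 cytosolic synthetase genes known as ATF4 targets, 9 were lower and 3 (Aars, Cars and Sars) did not pass (median −0.28). Of all genes tested 26.6% were lower, and each group is drawn from the same 20 cytosolic genes, of which 16 were lower. The medians describe the groups and no test of a difference between them was made.

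**Figure D2:**
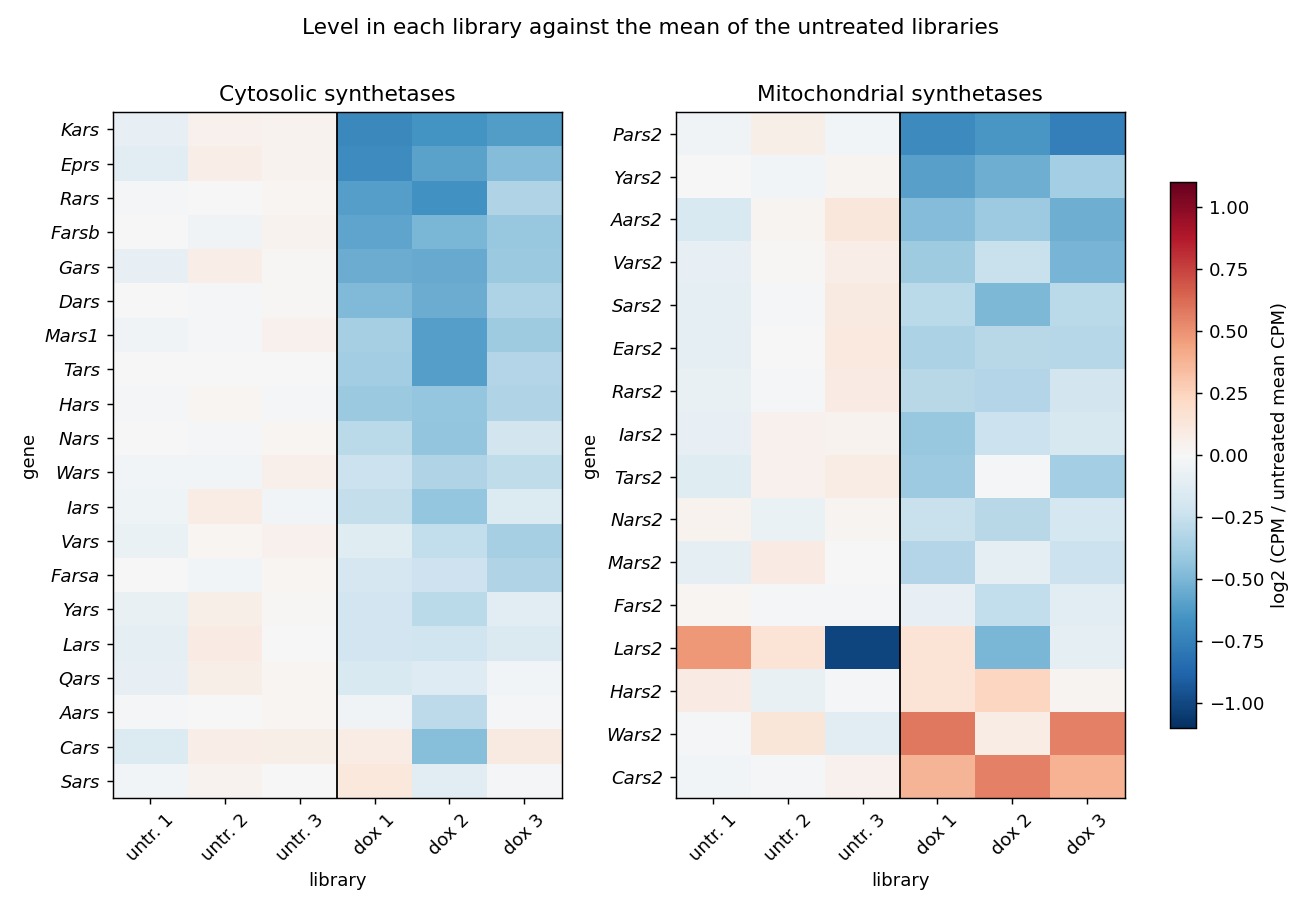
Level of each synthetase gene (rows) in each library (columns) as the log2 ratio of its CPM to the mean CPM of the 3 untreated libraries, blue for lower and red for higher. The 3 dox libraries are blue for most genes. Among the dox libraries Cars is low in replicate 2 only. Lars2 varies within both groups, from 513.6 to 1439 CPM in untreated libraries.

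Among the mitochondrial enzymes, the prolyl gene Pars2 fell the most, from 18.5, 19.7 and 18.6 to 11.7, 12.1 and 11.2 CPM (−0.70, SE 0.10, edgeR adjusted p = 0.000346). The tyrosyl gene Yars2 went from 30.0, 29.4 and 30.7 to 19.8, 20.7 and 23.2 CPM (−0.50, SE 0.09). Aars2, for alanine, measured 24.8, 28.3 and 30.3 CPM before and 19.9, 21.0 and 19.1 CPM after dox (−0.47, SE 0.10). The valyl gene Vars2 went from 46.3, 49.6 and 51.9 to 37.6, 41.6 and 34.6 CPM (−0.38, SE 0.09). Sars2, for serine, went from 34.0, 36.2 and 39.0 to 29.7, 25.8 and 29.7 CPM (−0.36, SE 0.09, edgeR adjusted p = 0.00806). The 5 genes were lower in every dox library than in any untreated one.

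Smaller falls were called for Rars2 (−0.28, SE 0.08), Iars2 (−0.27, SE 0.09) and Nars2 (−0.25, SE 0.09), which charge arginine, isoleucine and asparagine. None of the 3 kept its call throughout. By edgeR, Rars2 had adjusted p = 0.0684 without untreated replicate 3 and 0.0631 without dox replicate 1, and Iars2 had 0.0754, 0.0720 and 0.0935 without untreated replicate 2, untreated replicate 3 and dox replicate 1. For Nars2 the adjusted p by edgeR was 0.0862, 0.0562 and 0.108 without untreated replicates 1, 2 and 3 and 0.0857 and 0.0982 without dox replicates 1 and 2.

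The cysteinyl gene Cars2 was the single member that rose. It measured 16.2, 16.2 and 17.1 CPM before and 21.4, 24.2 and 21.5 CPM after dox, a 1.35-fold rise without overlap (log2 fold change 0.44, SE 0.09, edgeR adjusted p = 0.00364). In the GENCODE vM21 annotation Cars2 shares 422 exonic bases with Naxd on the opposite strand, so reads there cannot be assigned without strand. The gene for the tryptophanyl enzyme, Wars2, the least abundant of the 36 per length (1.41 RPKM untreated), measured 6.08, 6.78 and 5.71 CPM before and 9.28, 6.54 and 9.09 CPM after dox (0.43, SE 0.18, edgeR adjusted p = 0.0661). Its dox replicates 1 and 3 lay above all untreated libraries and replicate 2 among them, and without dox replicate 2 the difference passed (0.57, edgeR adjusted p = 0.0137). Hars2, for histidine, measured 53.7, 47.5 and 50.03 CPM before and 55.9, 59.3 and 51.5 CPM after dox (0.14, SE 0.08, edgeR adjusted p = 0.180), with overlapping groups.

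Of the other 5 mitochondrial genes that did not pass, 3 had all dox libraries below all untreated ones, as had 31.0% of all genes tested. The glutamyl gene Ears2 measured 9.23, 9.93 and 10.7 CPM before and 7.83, 8.08 and 8.003 CPM after dox (−0.32, SE 0.13, edgeR adjusted p = 0.0549), and passed without untreated replicate 1 (edgeR adjusted p = 0.0488). Mars2, for methionine, went from 23.1, 26.4 and 24.9 to 19.9, 23.0 and 21.1 CPM (−0.22, SE 0.09, edgeR adjusted p = 0.0790), and passed without dox replicate 2 (edgeR adjusted p = 0.0453). Fars2, for phenylalanine, measured 29.7, 29.0 and 29.0 CPM before and 27.4, 24.2 and 26.8 CPM after dox (−0.16, SE 0.08, edgeR adjusted p = 0.122). In the threonyl gene Tars2 dox replicate 2 stood apart: the levels were 78.4, 88.8 and 90.8 CPM before and 65.1, 84.8 and 66.4 CPM after dox (−0.25, SE 0.11, edgeR adjusted p = 0.0805). Without dox replicate 2, Tars2 changed by −0.39 (edgeR adjusted p = 0.00402).

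The leucyl gene Lars2 was unlike all other members. It measured 1439, 1143 and 513.6 CPM before and 1142, 728.3 and 956.3 CPM after dox (−0.13, SE 0.31, edgeR adjusted p = 0.749), and its 265.9 RPKM in untreated libraries was the highest level per length of the 36. Without untreated replicate 1 its log2 fold change was 0.18. The 28S ribosomal RNA gene Rn28s1, chosen after its values were seen, measured 3081, 2181 and 948.8 CPM before and 2304, 1459 and 1867 CPM after dox. The ratio of Lars2 to Rn28s1 stayed between 0.467 and 0.541 in all 6 libraries, while Lars2 itself ranged from 513.6 to 1439 CPM. How far the counts of Lars2 come from ribosomal RNA was not tested, and its counts are taken here as uncertain. Lars2 also set the sum of the mitochondrial genes: without it the other 15 summed to 472.2, 494.2 and 509.2 CPM before and 409.3, 439.0 and 415.6 CPM after dox, 85.7% of the untreated mean. The 20 cytosolic genes summed to 3477, 3680 and 3675 CPM before and 2912, 2725 and 2944 CPM after dox, or 79.2%.

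**Figure D3:**
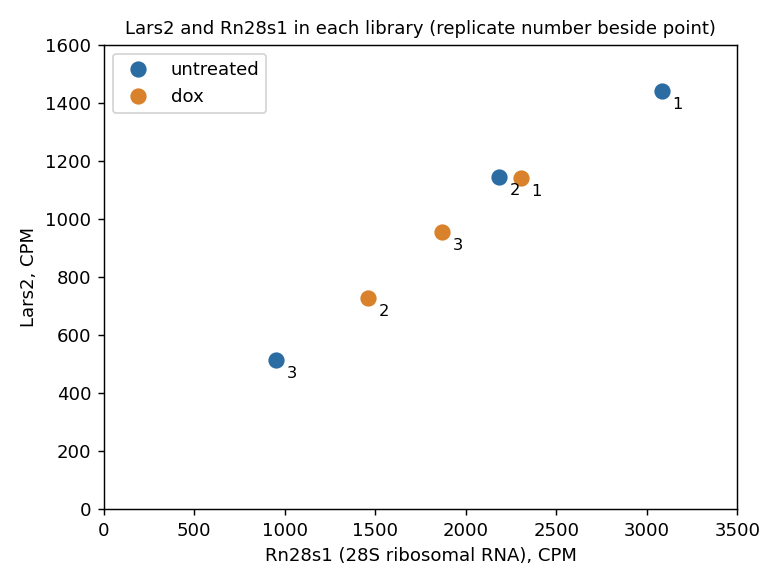
Lars2 (vertical axis, CPM) against the 28S ribosomal RNA gene Rn28s1 (horizontal axis, CPM) in the 3 untreated (blue) and 3 dox (orange) libraries, with replicate numbers. The points lie near 1 line through the origin, with ratios of 0.467 to 0.541, and the groups are mixed along it.

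For 13 amino acids with a cytosolic and a mitochondrial gene, the log2 ratio of the cytosolic to the mitochondrial level was compared between groups. The ratio was lower in all dox than in all untreated libraries for 4 pairs (those for tryptophan, histidine, cysteine and arginine), higher for 2 (serine and tyrosine) and overlapping for 7. Among all single genes tested, 31.0% lay wholly lower and 31.2% wholly higher in dox libraries. The share among ratios of other gene pairs was not computed, so these counts do not set the pairs apart. With 3 libraries against 3, the exact two-sided permutation test cannot give less than 0.1, which 6 pairs reached. Over 13 pairs the smallest adjusted p by this test was 0.217. No pair could pass the threshold of 0.05 whatever its values, so the test cannot decide whether a ratio changed.

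The largest gap was that of tryptophan. The ratio of Wars to Wars2 was 20.5, 18.4 and 23.2 before and 11.7, 15.5 and 11.5 after dox (change of the log2 ratio −0.69, exact permutation p = 0.1). For histidine the ratio of Hars to Hars2 went from 2.28, 2.64 and 2.44 to 1.67, 1.55 and 1.90 (−0.53, exact permutation p = 0.1). Hars itself measured 122.6, 125.6 and 122.2 CPM before and 93.3, 91.8 and 98.0 CPM after dox, a fall next to a neighbour that did not pass. Both genes lie on opposite strands and share 195 exonic bases in the GENCODE vM21 annotation, so reads there cannot be assigned without strand. The ratio of Cars to Cars2 went from 2.74, 3.19 and 3.01 to 2.43, 1.47 and 2.45 (−0.53, exact permutation p = 0.1), with dox replicate 2 the lowest.

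The pairs for isoleucine, asparagine and leucine had the smallest gaps between their log2 fold changes. The ratio of Iars to Iars2 was 3.59, 3.57 and 3.32 before and 3.90, 3.07 and 3.54 after dox. Iars2 measured 45.1, 49.4 and 49.2 CPM before and 35.9, 40.6 and 42.5 CPM after. Nars and Nars2 had ratios of 7.77, 8.24 and 7.89 before and 7.68, 7.25 and 7.91 after, from 173.2, 170.3 and 174.9 to 140.5, 127.6 and 149.9 CPM for Nars and from 22.3, 20.7 and 22.2 to 18.3, 17.6 and 19.0 CPM for Nars2. Lars measured 114.4, 130.9 and 122.4 CPM before and 105.8, 105.3 and 109.9 CPM after dox, and its pair rests on the uncertain counts of Lars2. For every pair but this one the cytosolic gene was the more abundant per length in untreated libraries, by 1.65-fold (tyrosine) to 31.3-fold (tryptophan).

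**Figure D4:**
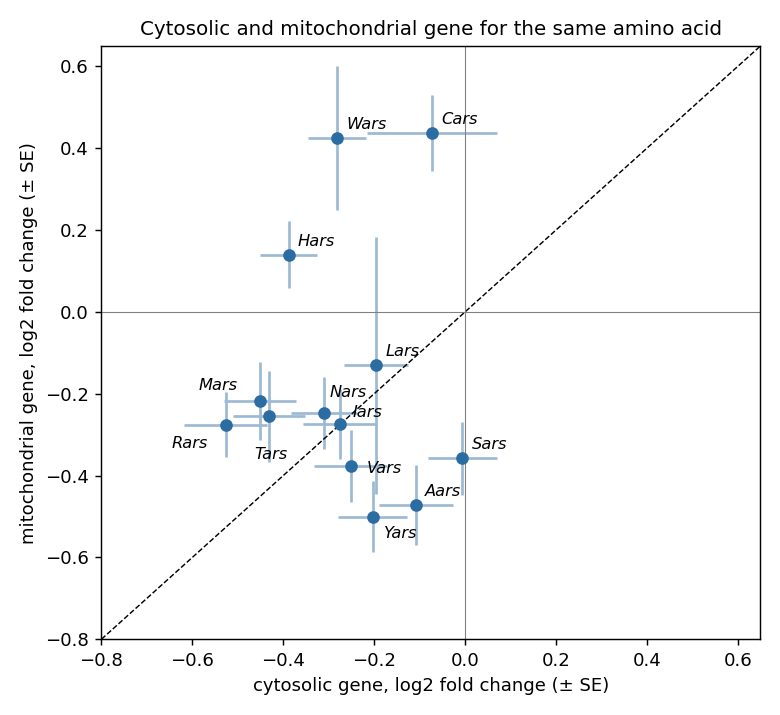
Log2 fold change of the cytosolic gene (horizontal axis) and of the mitochondrial gene (vertical axis) for the same amino acid in 13 pairs, with SE as bars; the dashed line marks equal change. Wars, Hars and Cars lie above the line, where the mitochondrial gene had the higher fold change, and Sars, Aars and Yars below it.

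Per length, the untreated levels of the cytosolic genes ran from Vars (173.2 RPKM) through Kars (108.7) and Gars (94.7) down to Lars (32.2), Yars (31.8) and Cars (18.2). The mean and SD over 3 libraries of Lars (32.2 ± 2.16 RPKM) and Yars (31.8 ± 1.60 RPKM) overlap, so their order is not settled. Apart from Lars2, the mitochondrial genes ran from Rars2 (19.7 ± 1.20), Sars2 (19.5 ± 1.34), Tars2 (19.4 ± 1.49) and Yars2 (19.3 ± 0.431 RPKM), which do not differ beyond their spread, down to Wars2 (1.41 ± 0.123 RPKM). The deposited gene length enters these values, and 13 of the 36 genes share exonic bases with another gene in GENCODE vM21, 10 of them with a protein-coding gene. The longest such overlaps are those of Iars2 with Rab3gap2 (2034 bases, opposite strands) and of Aars with Exosc6 (1326 bases, same strand). That of Mars1 with Ddit3 covers 68 bases and that of Cars2 with Naxd 422 bases, both on opposite strands.

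Genes that work beside the synthetases were read from lists. Of the 3 scaffold genes of the multisynthetase complex, 2 fell: Aimp2, from 55.4, 51.9 and 56.9 to 32.1, 31.0 and 31.4 CPM (−0.80, SE 0.07, edgeR adjusted p = 2.99e-05), and Eef1e1, which encodes a further scaffold subunit, by −0.55 (SE 0.11). The third, Aimp1, measured 80.1, 75.1 and 78.9 CPM before and 76.1, 71.5 and 85.9 CPM after dox. Of 4 proofreading genes, Aarsd1, an editor of mischarged alanine tRNA, changed by −0.83 (SE 0.09) and Dtd2, a deacylase, by −0.61 (SE 0.13). Neither Dtd1 (−0.13) nor Prorsd1 (0.24) passed. Mitochondria lack a glutaminyl synthetase of their own and make glutaminyl-tRNA through an amidotransferase, of which Qrsl1 fell by 0.47 on the log2 scale (SE 0.07) while Gatb (−0.17) and Gatc (−0.24) did not pass. Mtfmt, which formylates the mitochondrial initiator tRNA, was at 0.16 and did not pass either. Of 9 mitochondrial translation factors 4 fell (Tsfm at −0.64 and Tufm at −0.45 with the smallest p), 0 rose and 5 did not pass. Beside the counts of these short lists, 26.6% of all genes tested were lower and 27.0% higher.

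Of 19 tested genes that process or export tRNA, 15 fell and 0 rose (median −0.46). Rpp30, a subunit of the ribonuclease that trims the 5′ end of tRNA, went from 39.3, 40.0 and 40.9 to 19.9, 19.1 and 20.1 CPM (−1.02, SE 0.07, edgeR adjusted p = 1.05e-05), and Pop5, another subunit, changed by −0.93 (SE 0.08). Of 19 genes of RNA polymerase III, which transcribes tRNA genes, and its factors, 6 fell and 2 rose (median −0.07), and 6 of 19 is near the 26.6% of all genes called lower. Polr3e, a polymerase subunit, changed by −0.62 (SE 0.08). Maf1, the repressor of the polymerase, rose by 0.36 (SE 0.08). The alternative subunits Polr3g and Polr3gl moved apart, Polr3g from 22.9, 19.1 and 22.4 to 5.66, 9.89 and 9.28 CPM (−1.38, SE 0.19) and Polr3gl from 16.2, 17.8 and 19.0 to 25.1, 25.8 and 19.3 CPM (0.40, SE 0.13). Polr3gl was not called without untreated replicate 1 or 2 or dox replicate 1 or 2 (edgeR adjusted p = 0.0767, 0.0625, 0.0689 and 0.0612). Cytosolic elongation factors, which bring charged tRNA to the ribosome, went both ways: of 6, Eef1d changed by −0.48 (SE 0.06), Eef2k, the kinase that restrains elongation, rose by 0.66 (SE 0.07), and 4 did not pass (median −0.05).

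**Figure D5:**
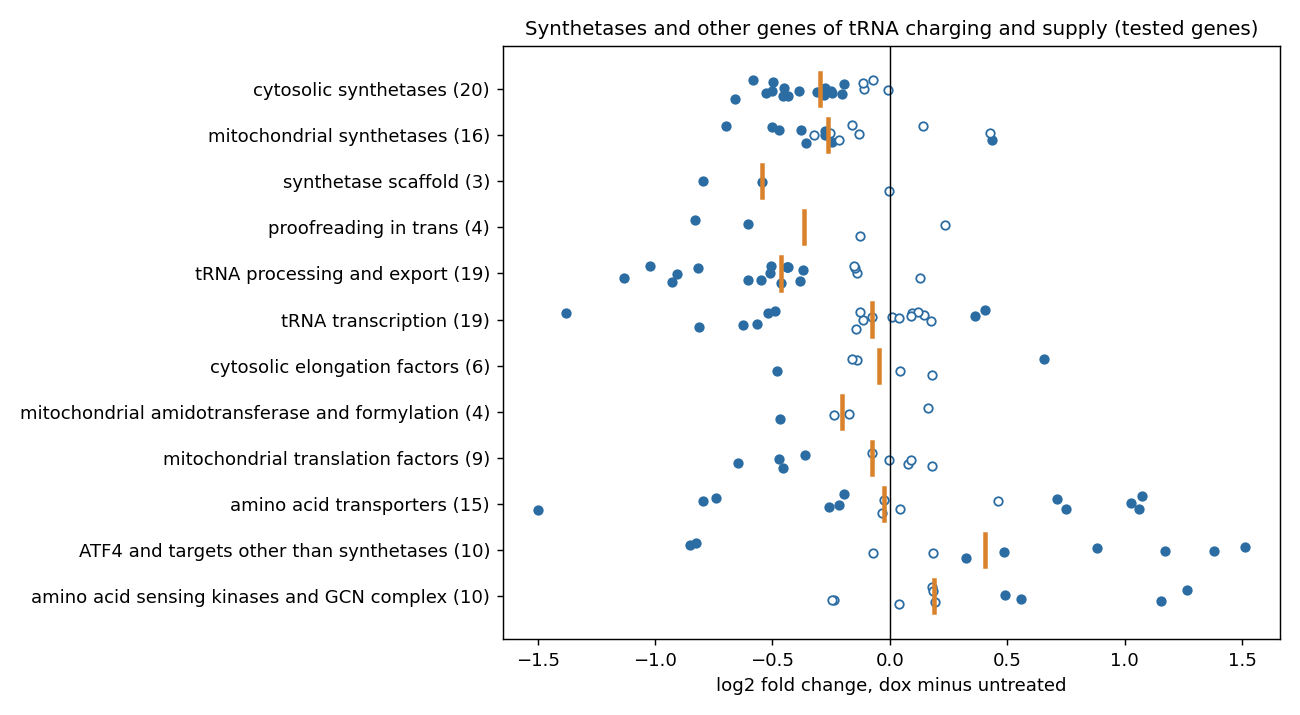
Log2 fold change (horizontal axis) of each tested gene of 12 lists (rows, with the number of tested genes), filled where the adjusted p was under 0.05; the orange bar is the median. The synthetase and tRNA processing lists lie mostly below 0, and the lists of ATF4 with its other targets and of amino acid sensing lie mostly above it, with medians of 0.41 and 0.19.

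Of 15 amino acid transporters tested 5 rose and 6 fell (median −0.02), beside 27.0% higher and 26.6% lower over all genes, so these counts set the list little apart from other genes. Slc1a5, a glutamine carrier, went from 276.4, 288.2 and 292.8 to 614.2, 628.0 and 560.9 CPM (1.07, SE 0.07, edgeR adjusted p = 8.69e-06) and Slc7a7, a chain of a basic and neutral amino acid exchanger, rose by 1.03 (SE 0.07). Slc7a5, the carrier of large neutral amino acids, changed by −0.79 (SE 0.12) and Slc7a1, a carrier of cationic amino acids, by −0.74 (SE 0.07). Of 10 genes that sense amino acids or stress, 4 rose and 0 fell, among them Eif2ak3 by 1.15 (SE 0.08), Rragd by 1.26 (SE 0.15) and Eif2ak4, which encodes GCN2, the kinase that senses uncharged tRNA, by 0.56 (SE 0.11).

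ATF4 and its targets other than synthetases were split. Of 15 genes 10 were tested, and 6 rose, 2 fell and 2 did not pass (median 0.41). Over all genes tested 27.0% were higher and 26.6% lower, and the 2 falls of 10 are near that share. Atf4 itself went from 174.7, 164.6 and 163.6 to 216.4, 185.7 and 226.8 CPM (0.32, SE 0.08, edgeR adjusted p = 0.00956). Ddit4, an inhibitor of mTORC1, rose by 1.38 (SE 0.16), Sesn2 by 0.88 (SE 0.19) and Chac1, which degrades glutathione, by 1.51 (SE 0.41). Chac1 measured 6.57, 3.42 and 3.33 CPM before and 8.49, 21.2 and 8.39 CPM after dox, with dox replicate 2 the highest, and without that library its log2 fold change was 0.93. Ddit3, which shares bases with Mars1, rose by 0.49 (SE 0.16), a call lost without untreated replicate 2 or 3 or dox replicate 1 (edgeR adjusted p = 0.0956, 0.111 and 0.108). Trib3, at 1.17 (SE 0.33), was not called without untreated replicate 3 or dox replicate 1 (edgeR adjusted p = 0.0605 and 0.0598). The serine synthesis genes Phgdh and Psat1 fell instead, by 0.85 (SE 0.10) and 0.82 (SE 0.10) on the log2 scale. Asns, which makes asparagine, the substrate of Nars, was close to undetected, with 2 counts in all untreated and 3 in all dox libraries, chosen after its values were seen. Both sums lie at or under 3 counts, the limit that a count of 0 allows and equal to 0.0684 CPM over the untreated and 0.0662 CPM over the dox libraries, so no fold is given; this covers counting error only.

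Myc, which is known to drive many genes of protein synthesis, measured 289.7, 276.1 and 317.2 CPM before and 87.8, 116.5 and 90.1 CPM after dox (−1.59, SE 0.11, edgeR adjusted p = 1.03e-05). No synthetase gene changed by as much on the log2 scale. Among its partners and antagonists, Mxd4 rose by 1.32 (SE 0.08) and Mxd1 by 0.61 (SE 0.10), Mxd3 changed by −0.76 (SE 0.09), and Max, Mxi1 and Mnt did not pass.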

How the data were processed

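RNA-seq counts of 6 libraries were used, 3 from untreated and 3 from dox-treated mice. The authors deposited whole-number counts of reads per Entrez gene with a gene length, other unit, in bases. CASAVA 1.8.2, featureCounts and the build mm9 are named per the submitters' processing notes; the aligner, annotation and strandedness were not given in the sources used here. Per-sample files held the same counts as the series table (0 values differed). Symbols came from the RefSeq gene table of GRCm38.p6, which is another build, so only promoter windows carry coordinates. For the lists, 274 of 275 entries matched.

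Genes were filtered with filterByExpr (minimum count 10), which left 12275 genes with 99.93% of counts, scaled by TMM (factors 0.991 to 1.009) and compared with the quasi-likelihood test of edgeR 4.0.16 in R 4.3.3 without covariates, with Benjamini-Hochberg adjustment over all genes. SE is the log2 fold change divided by the square root of F. RPKM is scaled CPM per kilobase of deposited length. The script was tested on simulated data. Total counts of 14185203 to 15612435 limit precision mainly for genes near 10 CPM, such as Wars2 and Ears2.

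Alternatives were other scalings, filters and tests (DESeq2 1.42.0, limma 3.58.1 voom), a replicate block, leaving out each library and a minimum fold of 1.5. Members and lists were chosen with earlier results of these data known. Values per library are given for the 5 largest called falls and rises per compartment, members that did not pass, the most and least abundant, and 6 pairs; of other lists, the 2 genes with the smallest p in each direction, and further ones chosen after their values were seen. One result that this rule names is not reported here.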

Additional observations from a re-analysis of the deposited data

How the results depend on the processing

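Of 468 values of the 36 synthetase genes under 13 alternatives, 427 kept their direction and their side of the threshold, 29 in 8 genes were no longer called, 6 in 4 genes became called and 6 in 3 genes changed sign. Upper-quartile scaling turned Sars to 0.020 and Aimp1 to 0.022, and a filter of 1 CPM in 3 libraries turned Aimp1 to 0.0012. Without single libraries the log2 fold change ranged from −0.075 to 0.049 for Sars, −0.17 to 0.089 for Cars, −0.46 to 0.18 for Lars2, −0.087 to 0.054 for Aimp1 and −0.49 to 0.26 for Rn28s1. None of these genes was called; the cause was not tested.

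With a minimum fold change of 1.5, called genes were 928 higher and 670 lower over all genes, and 0 cytosolic lower, 0 mitochondrial lower and 0 mitochondrial higher. Without single libraries, cytosolic genes called lower numbered 12 to 16, mitochondrial genes lower 5 to 9 and higher 1 to 2. Lars and Yars (upper-quartile scaling), Yars (DESeq2 test) and Nars2 (both) lost their call, and Tars2 gained one with no filter (edgeR adjusted p = 0.0407). Under upper-quartile scaling the median of all genes moved from 0.01 to 0.04 and 14 cytosolic and 7 mitochondrial genes were lower. With the replicate number as a block, 16 cytosolic and 8 mitochondrial genes were lower, Nars2 was not called (edgeR adjusted p = 0.0521) and Tars2 was (edgeR adjusted p = 0.0279). The numbers are not shown to pair the mice: deviations of same-numbered libraries correlated at 0.305, 0.288 and −0.0373, and untreated replicate 3 correlated best with dox replicate 2 (0.0248). Depth limits Asns, at 2 and 3 counts.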
